A study of Mus musculus with 8 samples.

Results

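The 10 genes described here were Hif1a, Slc2a1, Hk1, Hk2, Pfkp, Pfkfb3, Aldoa, Pgk1, Pkm and Ldha, taken by symbol from the 53735 genes listed in the count tables of both experiments. All 10 were among the 14418 genes that passed the filter on low counts. RNA was sequenced from 8 BMDM libraries. BMDMs, bone marrow derived macrophages, are bone marrow cells of 6-month-old male mice cultured for 7 days towards macrophages. WT mice were Mkl1+/+, Apoe-/- and KO mice were Mkl1-/-, Apoe-/-, so every animal lacked Apoe, and every animal had received angiotensin II (Ang II) from an implanted minipump for 7 days before the marrow was taken. Experiment 1 held WT libraries 1 and 2 and KO libraries 5 and 6, and experiment 2 held WT libraries 3 and 4 and KO libraries 7 and 8. Mkl1 was deleted in the whole animal, and the comparison holds no group without Ang II. The labels do not say that each library came from a separate culture, so p-values measure the spread between these samples, which may be technical.

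Glycolysis turns glucose into pyruvate in the cytosol and yields ATP without oxygen. Macrophages raise it when they are activated by inflammatory signals, and they then pass much of the pyruvate on to lactate. HIF-1, a transcription factor whose alpha subunit is encoded by Hif1a, is degraded when oxygen is plentiful, and it is known to drive transcription of glucose transporters and of most glycolytic enzymes by binding short hypoxia response elements near their starts. Several steps have more than 1 isozyme. Hk1 is often called the housekeeping hexokinase and Hk2 the inducible one.

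Between 33977799 and 41584540 counts were deposited per library, and the 10 genes drew between 16496 (Pfkfb3) and 655089 (Pkm) counts over all libraries. Mkl1, the targeted gene, had 25.6 and 27.1 CPM (counts scaled to library size) in WT and 19.5 and 20.9 CPM in KO of experiment 1, and 26.8 and 29.5 CPM in WT and 14.6 and 10.4 CPM in KO of experiment 2. It was lower in KO in both experiments, by the quasi-likelihood test of edgeR, adjusted over all genes tested (log2 fold change -0.39, SE 0.081, adjusted p = 0.00381, and -1.17, SE 0.19, adjusted p = 0.0218), and reads remained in every KO library. The call in experiment 2 was lost without WT library 3, WT library 4 or KO library 8, with adjusted p between 0.0540 and 0.0735 in edgeR, and that in experiment 1 with 1 fit of the 4 groups (adjusted p = 0.0811, edgeR). All 10 macrophage markers were expressed. Their sum was 26879 to 36356 CPM in WT and 18605 to 20514 CPM in KO of experiment 1, which did not overlap, and 15612 to 21210.5 CPM in WT and 18490.0 to 25605 CPM in KO of experiment 2, which did. Of the 10 markers, 4 were lower and 5 higher in KO of experiment 1, and 3 were lower and 3 higher in experiment 2. Fibroblast and stromal markers summed to 225 to 296 CPM in KO of experiment 1 and to 2.52 to 13.8 CPM in the other 3 groups, and all 7 that were tested were higher in KO of that experiment. Dendritic cell markers, with Cd209a at 0 in 3 groups, summed to 20.1 to 30.0 CPM in KO of experiment 1. They summed to 32.5 to 47.7 CPM in WT of experiment 2 and to 1.70 to 4.05 CPM in the other groups. Only 2 of the 8 were tested. Of these Itgax alone was called, higher in KO of experiment 1 and lower in KO of experiment 2. The log2 fold change of the other lay below 0 in both experiments. Neutrophil markers stayed at 1.52 CPM or less, and markers of lymphoid and erythroid cells at 0.0586 CPM or less. Cell cycle genes summed to 4096 to 4146 CPM in WT of experiment 2 and to 1814 to 2592 CPM elsewhere. In bulk RNA, fewer cells of a type and less RNA per cell cannot be told apart.

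The starts of these genes carry the letters of the hypoxia response element core. The following sequences are RefSeq promoter windows of GRCm38.p6, from 250 bases before to 50 bases after an annotated start, written 5′ to 3′ on the strand of the gene. Capitals mark ACGTG and GCGTG on either strand (read on the other strand as CACGT and CACGC), where neighbouring matches run together. They are shown for Hk2 and Pfkfb3, which moved in opposite directions in the 2 experiments, and for Slc2a1 and Pgk1, which lay lower in KO in both.
Hk2 chr6:82774405-82774704 (- strand): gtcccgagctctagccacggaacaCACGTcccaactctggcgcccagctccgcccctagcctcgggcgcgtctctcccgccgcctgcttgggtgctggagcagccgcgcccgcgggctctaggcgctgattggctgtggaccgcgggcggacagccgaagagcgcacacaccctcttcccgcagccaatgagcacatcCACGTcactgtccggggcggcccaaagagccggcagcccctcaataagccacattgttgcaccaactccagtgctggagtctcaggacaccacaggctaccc
Pfkfb3 first start chr2:11553880-11554179 (- strand): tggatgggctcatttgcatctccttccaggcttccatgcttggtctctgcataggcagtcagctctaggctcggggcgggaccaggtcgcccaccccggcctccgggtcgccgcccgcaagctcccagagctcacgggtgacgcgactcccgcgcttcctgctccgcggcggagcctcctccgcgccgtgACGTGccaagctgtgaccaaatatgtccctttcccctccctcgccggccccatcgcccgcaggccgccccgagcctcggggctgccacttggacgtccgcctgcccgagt
Pfkfb3 second start chr2:11502041-11502340 (- strand): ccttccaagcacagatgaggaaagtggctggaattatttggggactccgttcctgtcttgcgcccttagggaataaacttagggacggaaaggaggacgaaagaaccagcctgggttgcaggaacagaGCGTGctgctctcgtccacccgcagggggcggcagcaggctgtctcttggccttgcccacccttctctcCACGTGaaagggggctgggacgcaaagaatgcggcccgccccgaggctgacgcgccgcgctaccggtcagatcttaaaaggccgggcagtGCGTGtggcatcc
Slc2a1 chr4:119108495-119108794 (+ strand): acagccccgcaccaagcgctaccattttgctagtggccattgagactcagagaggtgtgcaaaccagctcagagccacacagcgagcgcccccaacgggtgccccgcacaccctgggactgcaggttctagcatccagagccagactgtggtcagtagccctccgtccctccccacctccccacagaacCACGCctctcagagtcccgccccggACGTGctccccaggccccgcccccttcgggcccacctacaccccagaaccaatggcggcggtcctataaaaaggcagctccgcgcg
Pgk1 chrX:106186850-106187149 (+ strand): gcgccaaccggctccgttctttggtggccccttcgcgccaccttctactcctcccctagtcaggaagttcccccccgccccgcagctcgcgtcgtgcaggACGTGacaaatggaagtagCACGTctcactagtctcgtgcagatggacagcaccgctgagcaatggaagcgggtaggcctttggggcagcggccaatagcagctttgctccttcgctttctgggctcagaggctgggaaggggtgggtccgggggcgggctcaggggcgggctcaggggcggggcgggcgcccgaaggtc
Hk2 and Pgk1 each held ACGTG at 2 places, Slc2a1 held it once beside 1 GCGTG, and the second window of Pfkfb3 held ACGTG and GCGTG 2 times each. Both ACGTG matches there belong to 1 CACGTG, the E-box that factors such as MYC and USF bind, which holds ACGTG on each strand. All 10 genes matched the RefSeq table, with 16 windows, of which 13 (81.25%) held either motif, against 43.8% of all 32851 windows. ACGTG was in 19.6%, GCGTG in 32.4% and CACGTG in 7.15% of all windows. Aldoa, Hk1 and Pkm each also had a window with neither, and windows of neighbouring starts of a gene share letters. A match describes letters only and is no measurement of binding.

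In experiment 1, 8 of the 10 genes were lower in KO, 1 (Hk1) was higher and 1 (Ldha) did not pass the test, though it did with no filter on low counts (log2 fold change -0.20, adjusted p = 0.00929, edgeR). The strongest differences were those of Hk2, at 4.14-fold lower, Pfkfb3, at 2.77-fold lower, and Slc2a1, at 2.25-fold lower. In experiment 2, Slc2a1 was again lower, at 1.91-fold, while Hk2 and Pfkfb3 were higher in KO, at 1.62-fold and 2.05-fold. The other 7 did not pass the test there. These counts stand beside a broad background. Of all 14418 genes, 55.1% were called in experiment 1 (28.1% lower and 27.0% higher) and 15.8% in experiment 2 (8.29% lower and 7.53% higher). The median log2 fold change of the 10 genes was -0.66 in experiment 1 and -0.12 in experiment 2, beside 0.01 over all genes in both. WT and KO libraries did not overlap for 9 of the 10 genes in experiment 1 and for 6 in experiment 2, where 79.9% and 65.4% of all genes also did not overlap. With 2 libraries against 2, an exact permutation test of a single gene cannot go below p = 0.333, so the tests below rest on the edgeR fit across all genes. Together the 10 genes took 0.590% and 0.550% of the scaled counts in WT libraries 1 and 2 and 0.364% and 0.408% in KO libraries 5 and 6, and between 0.509% and 0.552% in the 4 libraries of experiment 2.

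**Figure D1:**
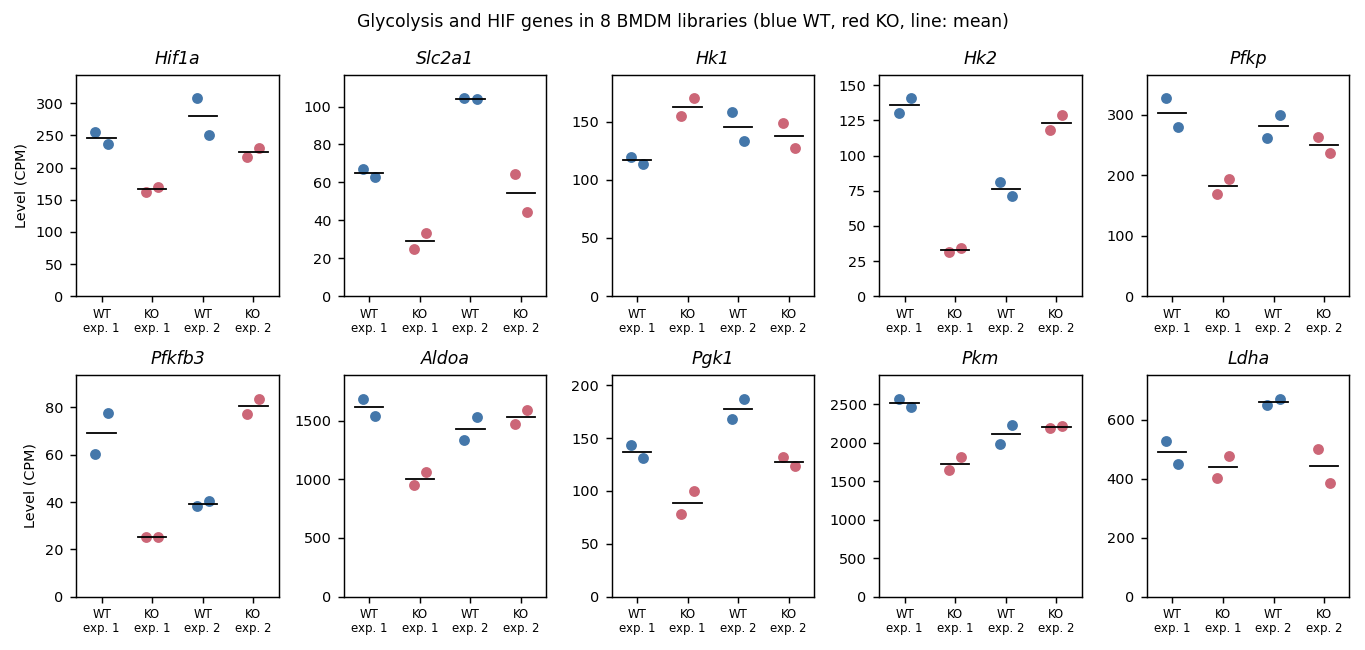
Level of each of the 10 genes in CPM (vertical axis, starting at 0) in the 4 groups (horizontal axis); each point is 1 library, blue for WT and red for KO, and the line is the mean of the 2 libraries. KO of experiment 1 has the lowest mean for 9 genes and the highest for Hk1.

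Hif1a, the oxygen-regulated subunit of HIF-1, had 256 and 237 CPM in WT and 162 and 169.9 CPM in KO of experiment 1. In experiment 2 it had 308 and 251 CPM in WT and 217 and 231 CPM in KO. Both KO libraries were under both WT libraries in each experiment. The log2 fold change was -0.58 (SE 0.064, adjusted p = 0.000142, edgeR) in experiment 1 and -0.32 (SE 0.15, adjusted p = 0.194, edgeR) in experiment 2, where the 95% interval ran from -0.69 to 0.05. In the fit of both experiments together, with experiment as an additive term, Hif1a was lower in KO by a log2 fold change of -0.45 (adjusted p = 0.0475, edgeR), a call that held in 4 of 16 alternative fits and, with a library left out, only without WT library 4. In that fit 3.41% of all genes were called lower and 3.72% higher.

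Slc2a1 encodes GLUT1, the main glucose transporter of macrophages. It had 66.8 and 63.0 CPM in WT against 25.1 and 33.2 CPM in KO of experiment 1, and 104 and 104 CPM in WT against 64.7 and 44.4 CPM in KO of experiment 2. It was the only one of the 10 genes that passed the test in the same direction in both experiments, where 2.25% of all genes were called lower in both and 4.38% in the same direction in both. Hk2 and Pfkfb3 passed in both with opposite directions, as 6.35% of all genes did. The log2 fold change was -1.17 (SE 0.13, adjusted p = 0.000909, edgeR) in experiment 1 and -0.93 (SE 0.19, adjusted p = 0.0360, edgeR) in experiment 2. The call in experiment 2 was lost without WT library 3, WT library 4 or KO library 8, with adjusted p of 0.121, 0.0955 and 0.0793 in edgeR. The libraries of WT in experiment 1 and of KO in experiment 2 overlapped.

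The hexokinases trap glucose in the cell as its phosphate. Hk2 had 130.5 and 141 CPM in WT and 31.7 and 34.3 CPM in KO of experiment 1, and 81.2 and 71.4 CPM in WT and 118 and 129 CPM in KO of experiment 2. No pair of groups overlapped, and the order from high to low was WT of experiment 1, KO of experiment 2, WT of experiment 2 and KO of experiment 1. The log2 fold change was -2.05 (SE 0.071, adjusted p = 9.40e-07, edgeR) in experiment 1 and 0.69 (SE 0.12, adjusted p = 0.0243, edgeR) in experiment 2. The call in experiment 2 was lost when any 1 of its 4 libraries was left out, with adjusted p between 0.0568 and 0.103 in edgeR, and the direction held. Hk1 went the other way in experiment 1, with 119.9 and 113 CPM in WT and 155 and 169.9 CPM in KO (log2 fold change 0.46, SE 0.067, adjusted p = 0.000629, edgeR). In experiment 2 Hk1 had 158 and 133 CPM in WT and 149 and 127 CPM in KO, the groups overlapped, and the 95% interval of the difference ran from -0.45 to 0.29.

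Per length of transcript, Hk3, a hexokinase of myeloid cells, was above both. Its level was 108 CPM per kb in WT and 94.6 in KO of experiment 1, and 103 in WT and 161 in KO of experiment 2. Hk1 lay between 27.3 and 37.9 CPM per kb and Hk2 between 5.98 and 24.6 over the same groups. Hk3 was higher in KO of experiment 2 (log2 fold change 0.65, SE 0.13, adjusted p = 0.0356, edgeR), but not past the threshold in experiment 1 (-0.20, adjusted p = 0.0627), where it passed as lower with no filter on low counts (-0.24, adjusted p = 0.00124, edgeR) and without KO library 6 (-0.32, adjusted p = 0.00874, edgeR). The call in experiment 2 was lost without any 1 of its 4 libraries. The ratio of Hk2 to Hk1 per kb was 0.845 and 0.962 in WT and 0.159 and 0.157 in KO of experiment 1, and 0.398 and 0.417 in WT and 0.617 and 0.786 in KO of experiment 2. Thus WT and KO did not overlap in this ratio in either experiment, and its order turned between them. Hkdc1 was too low to be tested.

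**Figure D2:**
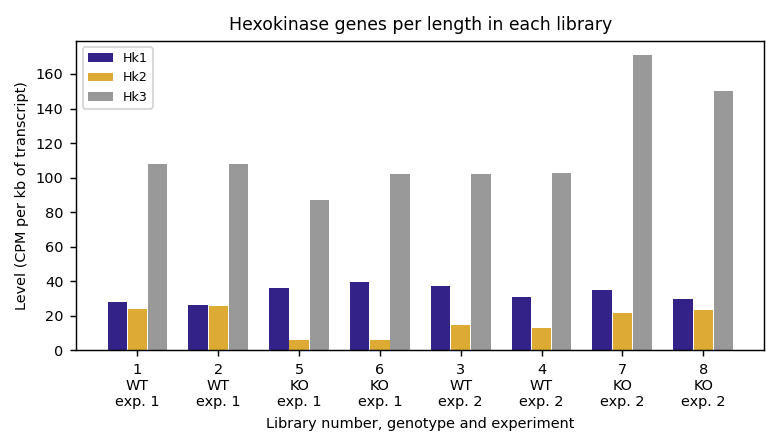
Levels of Hk1, Hk2 and Hk3 in CPM per kb of transcript (vertical axis, from 0) in each of the 8 libraries (horizontal axis, with number, genotype and experiment), 1 bar per gene and library. Hk3 is the highest in every library, and Hk2 is lowest in KO libraries 5 and 6.

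Phosphofructokinase makes the committed step of glycolysis, and Pfkp encodes its platelet type. Pfkp had 327.5 and 280.0 CPM in WT and 169.5 and 194 CPM in KO of experiment 1 (log2 fold change -0.75, SE 0.099, adjusted p = 0.000845, edgeR). It had 262 and 300.3 CPM in WT and 264 and 237 CPM in KO of experiment 2, where the groups overlapped and the 95% interval ran from -0.51 to 0.18. Pitrm1, which overlaps the end of Pfkp on the other strand in GENCODE M21, drew 35959 counts, against 77651 for Pfkp. The strand setting of the counting is not given in the sources used here, so reads of this pair may not have been kept apart. Pfkl, the liver type, was lower in KO in both experiments (-0.36, SE 0.11, adjusted p = 0.0284, and -0.93, SE 0.12, adjusted p = 0.0149, edgeR). In experiment 1 its call was lost under upper-quartile scaling, under total counts, with 1 fit of 4 groups and without WT library 1 or KO library 5, with adjusted p between 0.0529 and 0.123 in edgeR, and in experiment 2 without KO library 8 (adjusted p = 0.0709, edgeR). Pfkm, the muscle type, was higher in KO of experiment 1, with 12.7 and 11.9 CPM in WT and 25.6 and 22.8 CPM in KO (0.96, adjusted p = 9.31e-05, edgeR).

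Pfkfb3 makes the sugar phosphate that activates phosphofructokinase. It had 60.2 and 77.9 CPM in WT and 25.1 and 25.1 CPM in KO of experiment 1, and 38.2 and 40.3 CPM in WT and 77.3 and 83.8 CPM in KO of experiment 2. Thus it was low in KO of experiment 1 and high in KO of experiment 2, with no overlap within either experiment. The log2 fold change was -1.47 (SE 0.13, adjusted p = 0.000257, edgeR) and 1.04 (SE 0.11, adjusted p = 0.00900, edgeR), the latter with an adjusted p of 0.0541 without KO library 8. Its paralogue Pfkfb4 moved the other way in experiment 1, from 30.5 and 31.1 CPM in WT to 57.9 and 54.3 CPM in KO (0.85, SE 0.066, adjusted p = 2.44e-05, edgeR). The log2 fold change of Pfkfb4 in experiment 2 was -0.16 (adjusted p = 0.458, edgeR). The ratio of Pfkfb4 to Pfkfb3 per kb was 0.697 and 0.549 in WT and 3.18 and 2.98 in KO of experiment 1, and 1.59 and 1.30 in WT and 0.701 and 0.562 in KO of experiment 2. Pfkfb1 and Pfkfb2, at 13.9 CPM or less, passed the test in neither experiment, though Pfkfb2 passed as higher in experiment 1 under upper-quartile scaling and total counts (adjusted p = 0.0299 and 0.0351, edgeR).

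Aldoa splits the sugar bisphosphate, Pgk1 makes the first ATP of the pathway, and Pkm makes the last one together with pyruvate. Aldoa had 1688 and 1538 CPM in WT and 951 and 1061 CPM in KO of experiment 1, a log2 fold change of -0.69 (SE 0.084, adjusted p = 0.000240, edgeR). In experiment 2 it had 1331 and 1529 CPM in WT and 1472 and 1589 CPM in KO, which overlapped, with a 95% interval from -0.30 to 0.50. Pkm followed the same course. It had 2576 and 2466 CPM in WT and 1643 and 1818 CPM in KO of experiment 1 (-0.55, SE 0.080, adjusted p = 0.000595, edgeR), and 1991 and 2231 CPM in WT and 2187 and 2219 CPM in KO of experiment 2, with a 95% interval from -0.33 to 0.46. The counts are per gene, so the M1 and M2 isoforms of Pkm were not told apart. Pgk1 instead lay lower in KO in both experiments. It had 143 and 131 CPM in WT and 77.9 and 99.9 CPM in KO of experiment 1 (-0.64, SE 0.13, adjusted p = 0.00916, edgeR), and 168 and 187 CPM in WT and 132 and 123 CPM in KO of experiment 2 (-0.48, SE 0.12, adjusted p = 0.0561, edgeR). In both experiments together it was called lower (-0.55, adjusted p = 0.0269, edgeR). Aldoc, the brain type of aldolase, was higher in KO of experiment 1 at 84.6 and 84.9 CPM, against 20.7 and 14.3 CPM in WT (2.26, SE 0.17, adjusted p = 0.000383, edgeR), and had 55.5 and 39.5 CPM in WT and 32.2 and 12.6 CPM in KO of experiment 2 (adjusted p = 0.180, and 0.0473 under DESeq2 and 0.0471 without KO library 7).

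Ldha turns pyruvate into lactate. It had 528 and 451 CPM in WT and 404 and 477 CPM in KO of experiment 1, which overlapped, with a log2 fold change of -0.16 (SE 0.11, adjusted p = 0.246, edgeR) and a 95% interval from -0.43 to 0.10. In experiment 2 it had 649 and 672 CPM in WT and 500.0 and 385 CPM in KO, which did not overlap, with a log2 fold change of -0.58 (SE 0.17, adjusted p = 0.0805, edgeR). Ldha and Pgk1 passed the threshold in experiment 2 under DESeq2 (adjusted p = 0.0138 and 0.0115), with no filter on low counts and with 1 fit of the 4 groups, so that 5 of the 10 genes were called there. Over all genes the calls in experiment 2 also rose, from 2280 to 3135, 3006 and 4899 in these fits. Ldhb was listed at 2.05 CPM or less in every library, was called higher in KO of experiment 1 in 4 of 12 alternative fits (adjusted p from 0.0310 in edgeR) and not in the others, and Ldhc was too low to be tested. Pgk2, Pklr and Slc2a4 were also too low.

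**Figure D3:**
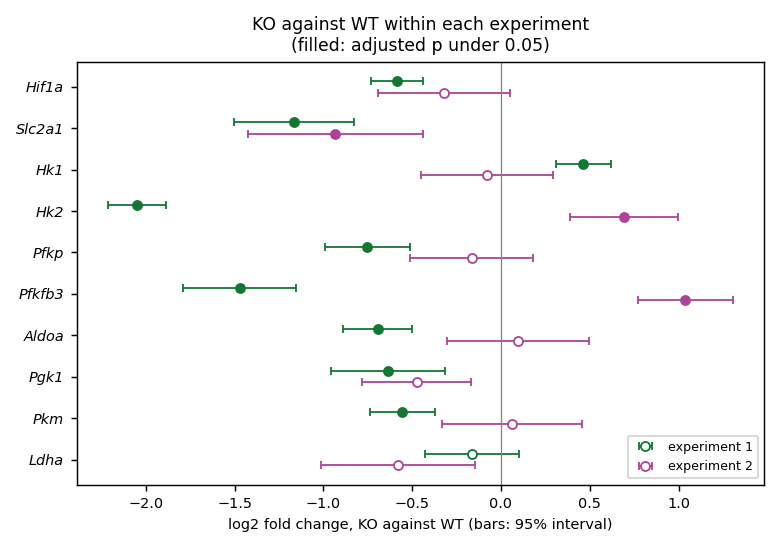
Log2 fold change of KO against WT (horizontal axis) for each of the 10 genes (vertical axis) in experiment 1 (green) and experiment 2 (purple); bars are 95% intervals of the edgeR fit, and filled points have an adjusted p under 0.05. Hk2 and Pfkfb3 lie on opposite sides of 0 in the 2 experiments, and Slc2a1 lies below 0 in both.

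An interaction term tested whether KO differed from WT by the same amount in both experiments. It passed the threshold for 6 of the 10 genes, with 41.6% of all genes called (20.6% with a lower and 21.0% with a higher difference in experiment 2). The difference, experiment 2 minus experiment 1 on the log2 scale, was 2.73 for Hk2 (SE 0.14, adjusted p = 8.74e-05, edgeR), 2.50 for Pfkfb3 (SE 0.18, adjusted p = 0.000179, edgeR) and 0.78 for Aldoa (SE 0.17, adjusted p = 0.00908, edgeR). These 3 genes stayed past the threshold in all 15 other fits. It was 0.60 for Pkm (adjusted p = 0.0177, edgeR), 0.58 for Pfkp (adjusted p = 0.0338, edgeR) and -0.55 for Hk1 (adjusted p = 0.0326, edgeR), and only 3 of the 6 calls were left when WT library 1 or KO library 5 was omitted. The call held in 12 of the 15 fits for Pkm, in 10 for Pfkp and in 9 for Hk1. For Slc2a1, Pgk1, Hif1a and Ldha the difference did not pass the threshold, although it did for Hif1a without WT library 3 (adjusted p = 0.0422, edgeR) and for Ldha without KO library 7 (adjusted p = 0.0405, edgeR). Its 95% interval ran from -0.39 to 0.84 for Slc2a1, from -0.27 to 0.57 for Pgk1, from -0.12 to 0.62 for Hif1a and from -0.93 to 0.08 for Ldha. In the fit of both experiments together, 3 of the 10 genes were called, all lower in KO (7.12% of all genes were called): Slc2a1 (-1.04, adjusted p = 0.0116, edgeR), Pgk1 and Hif1a. The call held in 14 of 16 alternative fits for Slc2a1, and in 9 for Pgk1. Under DESeq2, Pfkp was also called lower (adjusted p = 0.0370), and the calls over all genes rose from 1027 to 2492. Without WT library 1, 0 of the 10 were called in that fit of edgeR, where 3 had an unadjusted p under 0.05, and the calls over all genes fell to 243.

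Across the 4 groups, the levels of the 10 genes in KO of experiment 2 lay closest to those in WT of experiment 1. The root mean square log2 distance between these 2 groups was 0.194 over the 10 genes and 0.406 over all genes tested. WT and KO of the same experiment lay 0.995 apart in experiment 1 and 0.565 apart in experiment 2 over the 10 genes, and 0.980 and 0.863 over all genes. The WT groups of the 2 experiments lay 0.487 apart over the 10 genes and 0.841 over all genes. Among the 10 genes, the largest gap between the 2 libraries of a group was between 0.29 and 0.54 on the log2 scale. The groups are those of the labels. Every KO against WT value here rests on them, and these distances and the Mkl1 reads in KO libraries were not used to change them. Of 20 cell cycle genes, 7 were lower and 7 higher in KO of experiment 1, and 15 were lower and 0 higher in experiment 2. Of all genes, 28.1% were lower and 27.0% higher in experiment 1, and 8.29% and 7.53% in experiment 2. The summed macrophage markers were lower and the fibroblast and stromal markers higher in KO of experiment 1. The summed cell cycle genes were highest in WT of experiment 2. The part of each in the results above was not tested.

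Several of the 10 genes had like patterns over the 8 libraries. Pearson's r of log2 CPM was 0.978 between Slc2a1 and Pgk1, 0.954 between Aldoa and Pkm, 0.953 between Hk2 and Pfkfb3, and -0.851 between Hk1 and Pkm. The pairs did not separate into closed groups. Pfkp had an r of 0.870 with Pgk1 and 0.850 with Slc2a1, and also 0.915 with Pkm and 0.804 with Hk2, and r was 0.753 between Aldoa and Pgk1. These are descriptions over 8 libraries that come from 4 groups and share the same depth and scaling. Among all other genes tested, the pattern most like that of Ldha was that of Slc16a3, which encodes the lactate exporter MCT4 (r = 0.995), followed by Ska1. Slc2a1 was most like Slc25a25 (r = 0.995) and Tagln2 (r = 0.994), and Hk2 most like Fpr1, a formyl peptide receptor (r = 0.993), and Lrrc25 (r = 0.993). Fpr1 had 496 and 377 CPM in WT and 0.216 and 0.200 CPM in KO of experiment 1, and 48.8 and 10.3 CPM in WT and 191 and 189 CPM in KO of experiment 2. Hk1 was most like Lss (r = 0.982) and Fads2 (r = 0.979), enzymes of sterol and fatty acid synthesis. The nearest to the others were Capza1 and Psmb2 for Hif1a, Igf2bp2 and Xrcc2 for Pfkp, Rnf43 and Pabpc1 for Pfkfb3, Pgam5 and Hax1 for Aldoa, Uchl5 and Abhd17c for Pgk1, and Eri1 and Megf9 for Pkm.

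**Figure D4:**
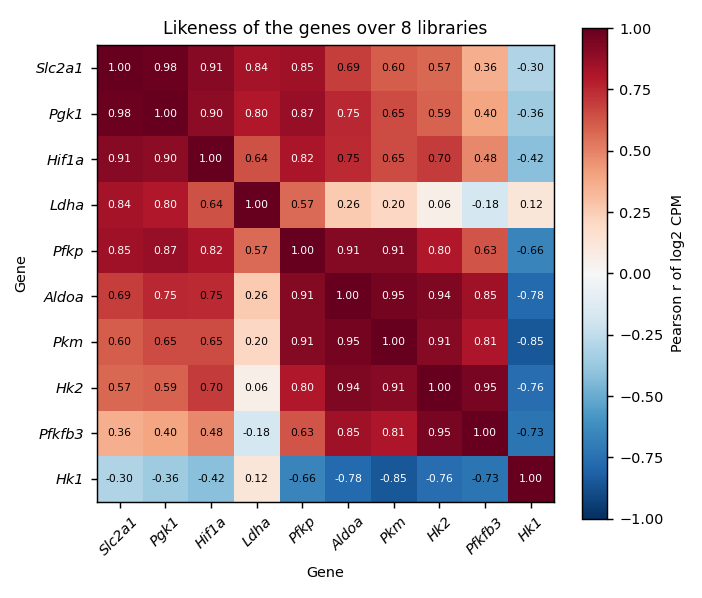
Pearson's r of log2 CPM between each pair of the 10 genes over 8 libraries (both axes: genes; colour from -1, blue, to 1, red). Values are high among Slc2a1, Pgk1 and Hif1a and among Aldoa, Pkm, Hk2 and Pfkfb3, Pfkp is high with most of both, and Hk1 is below 0 with all but Ldha.

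Hif1a and Slc2a1 have paralogues. Epas1, the alpha subunit of HIF-2, had 0.786 and 1.58 CPM in WT and 7.76 and 10.1 CPM in KO of experiment 1 (log2 fold change 2.92, SE 0.31, adjusted p = 0.000465, edgeR), and between 1.03 and 2.76 CPM in experiment 2. Its level per kb was at most 0.0509 of that of Hif1a in any library. Epas1 is also expressed by fibroblasts, whose markers were high in the same group, and the part of these cells was not tested. Slc2a6, a transporter of lysosomal membranes in macrophages, had 69.1 and 42.8 CPM in WT and 116 and 131 CPM in KO of experiment 1 (1.13, SE 0.28, adjusted p = 0.0459, edgeR), and 517 and 274 CPM in WT and 45.9 and 23.3 CPM in KO of experiment 2 (-3.51, SE 0.48, adjusted p = 0.0187, edgeR). Thus it moved against Hk2 and Pfkfb3 in both experiments. The call in experiment 1 was lost without KO library 5 or 6 and with 1 fit of 4 groups, that in experiment 2 without WT library 3 or KO library 8, and both with no filter on low counts. Slc2a3, or GLUT3, was higher in KO of experiment 2 (0.66, adjusted p = 0.0491, edgeR), a call lost without any 1 of the 4 libraries and with the size factors of DESeq2 (adjusted p = 0.0512, edgeR), and was called higher in experiment 1 under upper-quartile scaling and total counts. Of 11 isozymes and paralogues tested, 1 was lower and 5 higher in experiment 1, and 2 were lower and 2 higher in experiment 2. The share called was 54.5% and 36.4%, beside 55.1% and 15.8% of all genes, and the median log2 fold change 0.67 and -0.16, beside 0.01 over all genes in both.

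Of 11 genes tested for the other steps of glycolysis, 3 were lower and 0 higher in experiment 1, and 0 were lower and 1 higher in experiment 2. That is 27.3% and 9.09% of the list, beside 55.1% and 15.8% of all genes, with a median log2 fold change of -0.33 and -0.16. Gapdh, which makes the step between Aldoa and Pgk1, had 446 and 417 CPM in WT and 253 and 308 CPM in KO of experiment 1 (-0.63, SE 0.10, adjusted p = 0.00186, edgeR), and 453 and 419.8 CPM in WT and 411 and 373 CPM in KO of experiment 2 (-0.16, adjusted p = 0.460, edgeR). Eno1 lay at the threshold in experiment 1 (-0.34, adjusted p just under 0.05, edgeR) and had a log2 fold change of -0.33 (adjusted p = 0.108, edgeR) in experiment 2. Slc16a1, which encodes the lactate and pyruvate carrier MCT1, was lower in KO of experiment 1 (-1.01, SE 0.11, adjusted p = 0.000143, edgeR) and higher in KO of experiment 2 (1.00, SE 0.18, adjusted p = 0.0252, edgeR), as Hk2 and Pfkfb3 were. The call in experiment 2 was lost without WT library 3, KO library 7 or KO library 8 (adjusted p between 0.0600 and 0.112, edgeR). Slc16a3 had 64.7 and 45.4 CPM in WT and 36.4 and 50.7 CPM in KO of experiment 1, and 119 and 111 CPM in WT and 61.7 and 30.6 CPM in KO of experiment 2, and passed the test in neither.

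Of 15 partners and oxygen sensors of HIF, 7 were lower and 3 higher in KO of experiment 1, and 2 were lower and 0 higher in experiment 2. The share called was 66.7% and 13.3%, near the 55.1% and 15.8% of all genes, with a median log2 fold change of -0.27 and 0.07. All 3 prolyl hydroxylases (Egln1, Egln2 and Egln3), which mark HIF alpha subunits for degradation, were lower in experiment 1. Egln3 was listed at 2.00 CPM or less in every library. In experiment 2 all 3 genes had log2 fold changes (0.33, 0.42 and 0.32) that did not pass the test. Their interaction passed for Egln1 and Egln2 (adjusted p = 0.0186 and 0.0128, edgeR) but not for Egln3 (0.142). Eloc (-0.93, adjusted p = 1.30e-05) and Siah2 (-1.18, adjusted p = 2.79e-05) led the list of lower genes in experiment 1 in edgeR. Cited2, which competes with HIF for its coactivator, was higher in KO of experiment 1 (0.64, adjusted p = 0.000106, edgeR), as was that coactivator, Ep300 (0.36, adjusted p = 0.00205, edgeR), and Cited2 was lower in KO of experiment 2 (-1.02, adjusted p = 0.0188, edgeR), with Rbx1 (-0.43, adjusted p = 0.0459, edgeR). Of 23 HIF targets outside glycolysis, 8 were lower and 8 higher in experiment 1, and 1 was lower and 5 higher in experiment 2 (69.6% and 26.1% called, median log2 fold change -0.11 and 0.41). Ndrg1, a stress-responsive gene, had 641 and 1015 CPM in WT and 119 and 121 CPM in KO of experiment 1. In experiment 2 it had 29.0 and 48.9 CPM in WT and 413 and 840 CPM in KO (4.01, SE 0.47, adjusted p = 0.0147, edgeR). Ero1l, an oxidase of the endoplasmic reticulum, fell in experiment 1 (-1.66, adjusted p = 1.22e-06) and rose in experiment 2 (0.77, adjusted p = 0.0328) in edgeR. Tfrc, the transferrin receptor, was lower in experiment 1 (-2.24, adjusted p = 4.28e-07, edgeR). In experiment 2 it had 89.3 and 191 CPM in WT and 341 and 328 CPM in KO. That difference was not called (1.26, adjusted p = 0.0844), and the interaction of Tfrc passed (3.49, adjusted p = 0.000985) in edgeR. Mxi1 (0.63) and Kdm3a (0.34) were higher in experiment 1, Mxi1 with an adjusted p of 0.105 in 1 edgeR fit of 4 groups. Nos2, the inducible nitric oxide synthase, had 44.7 and 15.3 CPM in WT and 2.10 and 1.13 CPM in KO of experiment 2 (-4.22, SE 0.66, adjusted p = 0.0228, edgeR), and 1.84 and 2.37 CPM in WT and 0.0541 and 0.0999 CPM in KO of experiment 1. Vegfa, the angiogenic growth factor, was higher in KO of both experiments (0.30, adjusted p = 0.00809, and 0.95, adjusted p = 0.0267, edgeR), the call in experiment 2 being lost without WT library 4, KO library 7 or KO library 8 (adjusted p between 0.0668 and 0.0916, edgeR).

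**Figure D5:**
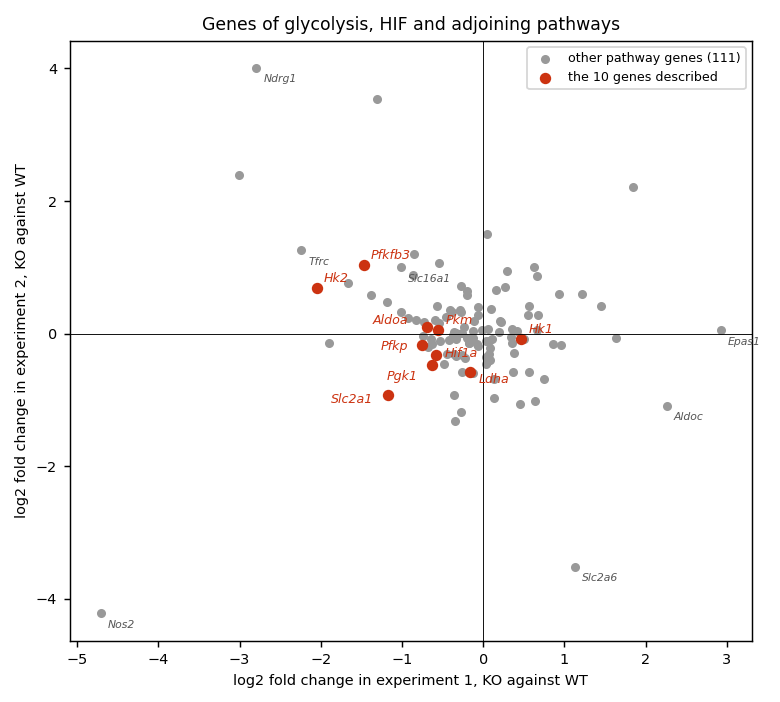
Log2 fold change of KO against WT in experiment 1 (horizontal axis) and experiment 2 (vertical axis) for the 10 genes (red) and for the 111 tested genes of the other pathway lists (grey), 1 point per gene. Hk2 and Pfkfb3 lie in the upper left with Ndrg1 and Slc16a1, Slc2a6 and Aldoc lie in the lower right, and Nos2 lies low in both.

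The routes that leave glycolysis are read against the same shares of all genes, 55.1% called in experiment 1 and 15.8% in experiment 2. In the pentose phosphate pathway, 3 of 8 genes were lower and 2 higher in experiment 1, and 2 were lower in experiment 2 (62.5% and 25% called, median log2 fold change -0.12 and -0.02). G6pdx, its entry enzyme, and Pgd, the next oxidative enzyme, were higher in KO of experiment 1 (0.74, adjusted p = 3.20e-05, and 0.37, adjusted p = 0.00294, edgeR) and lower in KO of experiment 2 (-0.68, adjusted p = 0.0259, and -0.58, adjusted p = 0.0364, edgeR), while Rpe (-0.73) and H6pd (-0.28) were lower in experiment 1, H6pd with an adjusted p of 0.146 in 1 fit of 4 groups. Among 13 tested genes of 14 in the list of pyruvate entry to mitochondria, 6 were lower and 3 higher in experiment 1, with Dld (-0.64) and Pdha1 (-0.41), subunits of pyruvate dehydrogenase, lower and Pdk2 (1.64), its inhibiting kinase, and Pdp2 (0.41), a phosphatase that activates it, higher. In experiment 2, 1 was lower, Pcx (-1.06, adjusted p = 0.0382, edgeR), and 1 higher, the phosphatase Pdp1 (1.50, adjusted p = 0.00664, edgeR). The share of tested genes called was 69.2% and 15.4%, with a median log2 fold change of -0.18 and -0.07. Pdk4, another inhibiting kinase, missed the filter on low counts and was not tested, and had 0.0491 and 0.0586 CPM in WT and 8.24 and 8.29 CPM in KO of experiment 1, and at most 0.493 CPM in experiment 2. Pck2, a mitochondrial enzyme of gluconeogenesis, was lower in experiment 1 (-0.86, adjusted p = 1.56e-05, edgeR) and higher in experiment 2 (1.20, adjusted p = 0.0149, edgeR), and Mdh2 was lower in experiment 1 (-0.55). Of the 4 genes of that list that were tested, 3 were lower in experiment 1 and 1 was higher in experiment 2 (75% and 25% called, median log2 fold change -0.38 and 0.37).

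Of 11 glycogen genes, 5 were lower and 3 higher in experiment 1, and 0 were lower and 2 higher in experiment 2 (72.7% and 18.2% called, beside 55.1% and 15.8% of all genes, median log2 fold change -0.12 and 0.21). Gyg, the primer of glycogen, was higher in KO of both experiments (adjusted p = 0.000128 and 0.0233, edgeR), with 98.2 and 91.2 CPM in WT against 245 and 200.2 CPM in KO of experiment 1. In the same experiment Ppp1r3d (1.45) was higher and Ugp2 (-0.59) and Gbe1 (-1.38) were lower, the last with an adjusted p of 0.0694 in edgeR without KO library 5. Pygl, a glycogen phosphorylase, was lower in experiment 1 (-0.54, adjusted p = 0.00519, edgeR) and higher in experiment 2 (1.06, adjusted p = 0.0108, edgeR). Of 15 other regulators, 6 were lower and 3 higher in experiment 1, and 1 was lower and 1 higher in experiment 2 (60.0% and 13.3% called, median log2 fold change -0.12 and -0.08). Myc, a factor that drives many glycolytic genes, had 29.8 and 25.6 CPM in WT and 6.79 and 8.22 CPM in KO of experiment 1 (-1.90, SE 0.13, adjusted p = 1.44e-05, edgeR), and 21.0 and 21.6 CPM in WT and 17.9 and 20.9 CPM in KO of experiment 2 (-0.13, adjusted p = 0.520, edgeR). Txnip, which restrains glucose uptake, was higher in KO of experiment 1 (0.93, adjusted p = 0.000223, edgeR) and had a log2 fold change of 0.60 (adjusted p = 0.0703, edgeR) in experiment 2. Rheb (-0.74) was lower and Akt2 (0.67) higher in experiment 1, and Sirt6 (-0.60) was lower and Prkaa2 (2.40), a catalytic subunit of AMPK, higher in experiment 2. Over the 9 lists, 42 of 111 genes were lower and 27 higher in experiment 1 and 9 were lower and 13 higher in experiment 2, beside 4057 lower and 3892 higher of all genes in experiment 1 and 1195 lower and 1085 higher in experiment 2. In experiment 1 the split of the lists was 35 lower to 37 higher under upper-quartile scaling and 35 to 34 under total counts, and that of all genes 3207 to 4776 and 3207 to 4593. Calls in experiment 2 were fewer than these 22 with any 1 library left out, and fewest without KO library 8, as they were over all genes. Those made without WT library 4 were in part of genes outside the 22. Pdp1 was called in experiment 2 whichever library was left out, and Ero1l was not called without KO library 8. Pck2, Pygl and Prkaa2 lost their calls without KO library 8 alone. Those of Cited2 and Nos2 were lost without KO library 7 or 8, that of Ndrg1 without WT library 3 or KO library 8, and that of Pcx without WT library 4, KO library 7 or KO library 8. The calls of Rbx1, G6pdx, Pgd, Gyg and Sirt6 were lost without any 1 of the 4 libraries. Those of Rbx1 and Sirt6 were also lost under upper-quartile scaling (adjusted p = 0.0632 and 0.0630, edgeR) and total counts (0.0791 and 0.0761), that of Sirt6 under limma-voom (0.0533), and those of Ndrg1 and Nos2 with no filter on low counts (0.111 and 0.204).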

How the data were processed

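BMDM RNA was sequenced in 8 libraries (TruSeq Stranded mRNA), 2 per genotype in each of 2 experiments. Per the submitters' processing notes the tools were STAR 2.7.0f, Subread 1.6.4 with featureCounts and DESeq2 1.22.1, on GRCm38. The annotation and the strand setting are not given in the sources used here. The authors deposited raw counts per gene, 1 table per experiment, and normalized counts, which were not used because they were scaled within each experiment.

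The tables were joined by symbol. Libraries were grouped by the genotype and number in their labels. The 14418 genes passing filterByExpr by genotype entered the tests, with about 99.9% of the counts of a library. KO was compared with WT within each experiment by edgeR 4.0.16 in R 4.3.3 (TMM, robust quasi-likelihood F test, Benjamini-Hochberg adjustment over all genes, threshold 0.05). Further fits held experiment, genotype and their interaction, or both as additive terms. The SE was derived from the fold change and its F statistic, and 95% intervals use the t distribution of the fit. Levels are TMM-scaled CPM, or CPM per kb of the longest principal transcript in GENCODE M21. Log2 CPM used a prior count of 2. The fits were tested on simulated data in which 200 genes had a log2 fold change of 1 or -1. They recovered 67% of these in experiment 1, 72% in experiment 2, 35% for the interaction and 88.5% for both experiments together. False calls numbered 10, 15, 10 and 15 in the same order.

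The 10 genes and all lists were chosen with earlier results of these data known. Named genes are the 10, Mkl1, tested isozymes, Gapdh, Eno1, the 2 genes of smallest p per direction and experiment in each other list, and the 2 genes most like each of the 10. Slc16a3, the Egln genes, Pdk4 and Fpr1's levels were added after their values were seen. Alternatives were DESeq2 1.42.0, limma-voom (limma 3.58.1), other scalings, filters and thresholds, 1 fit of 4 groups, no experiment term, and each library left out. Figures used matplotlib 3.10.9.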

Additional observations from a re-analysis of the deposited data

Results flagged for a closer look

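The interaction test of edgeR marked a difference between the experiments in the KO against WT effect of 7 genes, given as the log2 fold change of experiment 2 minus that of experiment 1. It was 2.73 for Hk2 and 2.50 for Pfkfb3, whose effects had opposite signs and were called in both experiments, as were those of 6.35% of all genes. It was 0.78 for Aldoa, 0.60 for Pkm and 0.58 for Pfkp, which were lower in KO of experiment 1 and not called in experiment 2. It was -0.55 for Hk1, which was higher in KO of experiment 1, and -0.79 for Mkl1, which was lower in KO of both experiments and by more in experiment 2. The call for Mkl1 was lost without WT library 1, 2 or 4 or KO library 5 or 6, with adjusted p between 0.0586 and 0.0879 in edgeR. The same test called 41.6% of all genes. Experiment cannot be told apart from whatever else differed between the 2 sets of animals, cultures and sequencing.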

How the results depend on the processing

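In experiment 1, 9 of the 10 genes were called, beside 55.1% of all genes, and 3 at a change of at least 2-fold. Calls over all genes were not counted at 2-fold or at an adjusted p under 0.01. In experiment 2, 3 were called, 5 under DESeq2, with no filter or with 1 fit of 4 groups (over all genes 2280 became 3135, 3006 and 4899), 1 at an adjusted p under 0.01 or at 2-fold, and 0 to 2 when a library was left out (0 in edgeR without KO library 8, with 4 at an unadjusted p under 0.05). For the interaction, 6 were called, beside 41.6% of all genes, with 3 at an adjusted p under 0.01 and 2 at 2-fold. The number called stayed or fell with a library left out. For both experiments together, 3 became 4 under DESeq2 and 0 without the experiment term (5 at an unadjusted p under 0.05 in edgeR). Over all genes, 1027 calls became 2492 and 4 in these fits. The 3 also became 0 at an adjusted p under 0.01 and 1 at 2-fold, and fell with any library left out. Of the 111 pathway genes, 69 were called in experiment 1 (17 at 2-fold, 58 to 68 with a library left out) and 22 in experiment 2 (44 with 1 fit of 4 groups, 1 at an adjusted p under 0.01, 10 at 2-fold, 1 to 16 with a library left out).

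Log2 fold changes that turned sign were not called before or after. In experiment 1, Pfkfb1 turned to -0.00948 with no filter and lay between -0.10 and 0.15 over all settings, at -0.028 without WT library 1 and -0.10 without KO library 6. In experiment 2, without WT library 3, Hk1 became 0.050, Aldoa -0.0013, Pkm -0.021, Epas1 -0.44 and Ldhb -0.033. Hk1 became 0.032 without KO library 8 and Epas1 -0.82 without KO library 7. With a library left out, the highest values in experiment 2 were 0.20 for Aldoa, 0.79 for Epas1 and 0.68 for Ldhb, and the lowest for Hk1 was -0.20. The interaction of Slc2a1 became -0.036 without KO library 7, and 0.47 at most. Pfkfb3 in both experiments together became 0.050 without WT library 2, 0.18 without KO library 5 and 0.17 without KO library 6, and -0.60 at the lowest. The cause was not tested.

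Upper-quartile scaling and total counts moved the median log2 fold change of all genes in experiment 1 from 0.01 to 0.11 and 0.10, and the 10 genes had the same 8 lower and 1 higher calls. Over all genes, leaving out a library took the calls in experiment 2 from 2280 to between 232 (KO library 8) and 1388 (WT library 4). No paired analysis was possible because the groups share no replicate numbers. With 2 libraries per group, a difference that missed the threshold is not shown to be absent.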
